A study of Mus musculus with 6 samples.

Results

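A set of 9 transcription factor genes of the RUNX and ETS families was followed in regulatory T cells (Treg cells) of BAF60b knockout mice. The genes were Runx1, Runx2, Runx3, their partner Cbfb, and the ETS genes Ets1, Ets2, Fli1, Elf1 and Gabpa. They were picked by symbol, without reference to a measured threshold, and all 9 were found among the 54232 genes listed in the count table and passed the filter on low counts. BAF60b, encoded by Smarcd2, is a subunit of the SWI/SNF chromatin remodelling complex. GFP-positive Treg cells came from the spleens of mice with a conventional knockout of BAF60b (KO, 3 libraries), in which the deletion is not restricted to Treg cells, and of wild-type mice (WT, 3 libraries). The sources used here do not give the strain, age or sex of the mice, the allele that carries GFP, the deleted exons or the number of mice behind a library.

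RUNX proteins bind DNA through the Runt domain and do so stably only as heterodimers with CBF-beta, which makes no DNA contact of its own. In Treg cells the RUNX and CBF-beta complex binds regulatory DNA of Foxp3, helps to keep that gene active and also associates with the FOXP3 protein. ETS proteins recognise a GGAA core through the ETS domain, and in lymphocytes they often bind next to RUNX proteins at the same enhancers.

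Total counts lay between 19365472 and 22502804 reads in KO libraries and between 18167053 and 21038091 reads in WT libraries. Smarcd2 had 1157, 1131 and 1335 reads in KO 1, 2 and 3, against 3729, 4173 and 3807 reads in WT 1, 2 and 3 (log2 fold change -1.77, edgeR adjusted p = 6.78e-08). Smarcd2 reads thus remained in KO, and these data hold no measure of BAF60b protein. All 7 Treg and T cell markers were tested and 1 of them rose (Ikzf2, log2 fold change 0.42, edgeR adjusted p = 0.00527). Beside this and the marker calls that follow, 3.25% of all genes tested were called as higher and 3.2% as lower in KO. Before scaling to library size, Foxp3 had between 11729 and 13455 reads in KO libraries and between 10207 and 11809 reads in WT libraries. Summed myeloid markers ranged from 15.2 to 87.3 CPM (reads scaled to library size) in KO, with the highest value in KO 2, and from 25.7 to 32.4 CPM in WT. Summed B cell markers ranged from 13.9 to 19.9 CPM in KO and from 16.4 to 20.9 CPM in WT. Of the 3 tested B cell markers, Cd22 rose (log2 fold change 1.19, edgeR adjusted p = 0.0174) and Cd79b fell (log2 fold change -0.69, edgeR adjusted p = 0.0106). Summed NK and CD8 T cell markers ranged from 18.9 to 20.3 CPM in KO and from 17.1 to 20.6 CPM in WT, and summed erythroid and platelet markers from 2.09 to 13.3 CPM in KO and from 3.03 to 4.79 CPM in WT. Of the 4 tested NK and CD8 T cell markers Klrb1c fell (log2 fold change -1.14, edgeR adjusted p = 0.0353), while Eomes did not pass, with every KO library above every WT library (log2 fold change 0.71, edgeR adjusted p = 0.0560). Y-linked transcripts were at 0 CPM in KO 2 and WT 1, Xist was at 0 CPM in KO 3, and both kinds were found in KO 1, WT 2 and WT 3. In RNA from a cell population, a lower level in each cell and fewer cells expressing a gene cannot be told apart.

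The RUNX genes are shown first by sequence, because their upstream promoters share a feature that the choice of genes did not use. RefSeq promoter windows (GRCm38.p6, 300 bases around a start site) were held for 7 of the 9 genes, with 2 windows each for Runx1, Runx3 and Elf1. The most upstream windows of Runx1, Runx2 and Runx3, on chromosomes 16, 17 and 4, shared an exact run of 18 bases, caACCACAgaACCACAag, in which capitals mark a pair of RUNX core motifs (TGTGGT, read here on the opposite strand as ACCACA). Among 32851 windows of all genes 4 held this run, the fourth being that of Gm16225. The following stretches of 30 bases, 5′ to 3′ on the strand of each gene, show the run in its context with the same motif in capitals.
Runx1, chr16:92826025-92826054, minus strand: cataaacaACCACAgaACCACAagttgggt
Runx2, chr17:44814583-44814612, minus strand: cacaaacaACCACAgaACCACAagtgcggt
Runx3, chr4:135120503-135120532, plus strand: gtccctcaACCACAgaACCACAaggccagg
The stretch lay 21 to 50 bases after the RefSeq start site in Runx1, 16 to 45 bases after it in Runx2, and 142 to 113 bases before it in Runx3.

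The motif TGTGGT, searched on both strands, was found 2 times in the upstream window of Runx1, 3 times in that of Runx2 and 2 times in that of Runx3. It was found 0 times in the downstream windows of Runx1 and Runx3 and in those of Cbfb, Ets2, Elf1 and Gabpa. Of all windows, 16.8% held it at least once and 1.81% at least 2 times. The ETS motif CCGGAA, also searched on both strands and held by 14.9% of all windows, occurred once in the window of Gabpa and once in the downstream window of Runx1. No window of these genes held both motifs. The match in Gabpa lay 92 bases before the start site and is shown because GABP itself belongs to the proteins that bind such a core.
Gabpa, chr16:84835020-84835049, plus strand: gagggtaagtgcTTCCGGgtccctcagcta
Capitals mark CCGGAA on the opposite strand. Counts per gene do not separate transcripts that start at different promoters, so the reads below are sums over the promoters of each gene.

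To see which of these genes dominate in Treg cells, levels were compared per length, as TMM-scaled CPM per kilobase of annotated exon (RPKM). Ets1, which lymphocytes need for development and for a stable resting state, was far above the rest, at 287.1 ± 9.31 RPKM in KO and 284.3 ± 14.9 RPKM in WT (SD, n = 3 each). It ranked 122nd among 13588 tested genes with an annotated length. The next levels, in both genotypes, were those of Cbfb, at 69.8 ± 1.28 RPKM in KO and 65.7 ± 3.28 RPKM in WT, and of Elf1, at 65.6 ± 1.76 RPKM in KO and 60.0 ± 0.292 RPKM in WT. Fli1 followed, with 35.9 ± 0.878 RPKM in KO and 34.6 ± 0.431 RPKM in WT, and then Gabpa, with 20.96 ± 0.650 RPKM in KO and 19.6 ± 0.185 RPKM in WT.

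The remaining genes stood lower and closer together. Ets2 had 12.8 ± 2.64 RPKM in KO and 12.9 ± 0.822 RPKM in WT, Runx3 had 12.3 ± 0.400 RPKM in KO and 10.9 ± 0.888 RPKM in WT, and Runx1 had 10.3 ± 0.519 RPKM in KO and 10.7 ± 0.168 RPKM in WT. Runx2 was the lowest at 2.83 ± 0.175 RPKM in KO and 2.22 ± 0.0629 RPKM in WT. Among neighbours in this order the library values overlapped for Ets2 and Runx3 in KO and for Runx3 and Runx1 in WT, and other neighbouring pairs did not overlap. With the longest annotated transcript as the length, Elf1 stood above Cbfb and Runx1 above Ets2 and Runx3 in both genotypes, so those orders depend on which transcripts are counted as the length.

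Against this background, KO was compared with WT gene by gene. Runx2 rose and the other 8 genes did not pass the test (edgeR's quasi-likelihood test, Benjamini-Hochberg adjusted p under 0.05 over 13602 genes). Over all genes tested 6.45% passed, 3.25% as higher and 3.2% as lower in KO, so 1 of 9 (11.1%) is a share close to the background. For 3 of the 9 the unadjusted p was under 0.05, beside 20.4% of all genes. The median log2 fold change (KO minus WT) was 0.09 over the 9 genes and 0.00 over all genes tested, and 7 of the 9 values were above 0. After TMM scaling, all KO values lay above all WT values for Runx2, Runx3, Elf1 and Gabpa, which makes 4 of 9 beside 12.6% of all genes, and no gene lay wholly below. On total reads without TMM scaling Cbfb and Fli1 joined them, giving 6 of 9 beside 13.6%. An exact two-sided permutation test of CPM on total reads gave p = 0.1 for these 6 genes, the smallest p that 3 against 3 allows. Any gene without overlap on this scale gets that p, so the test adds nothing to the count.

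**Figure D1:**
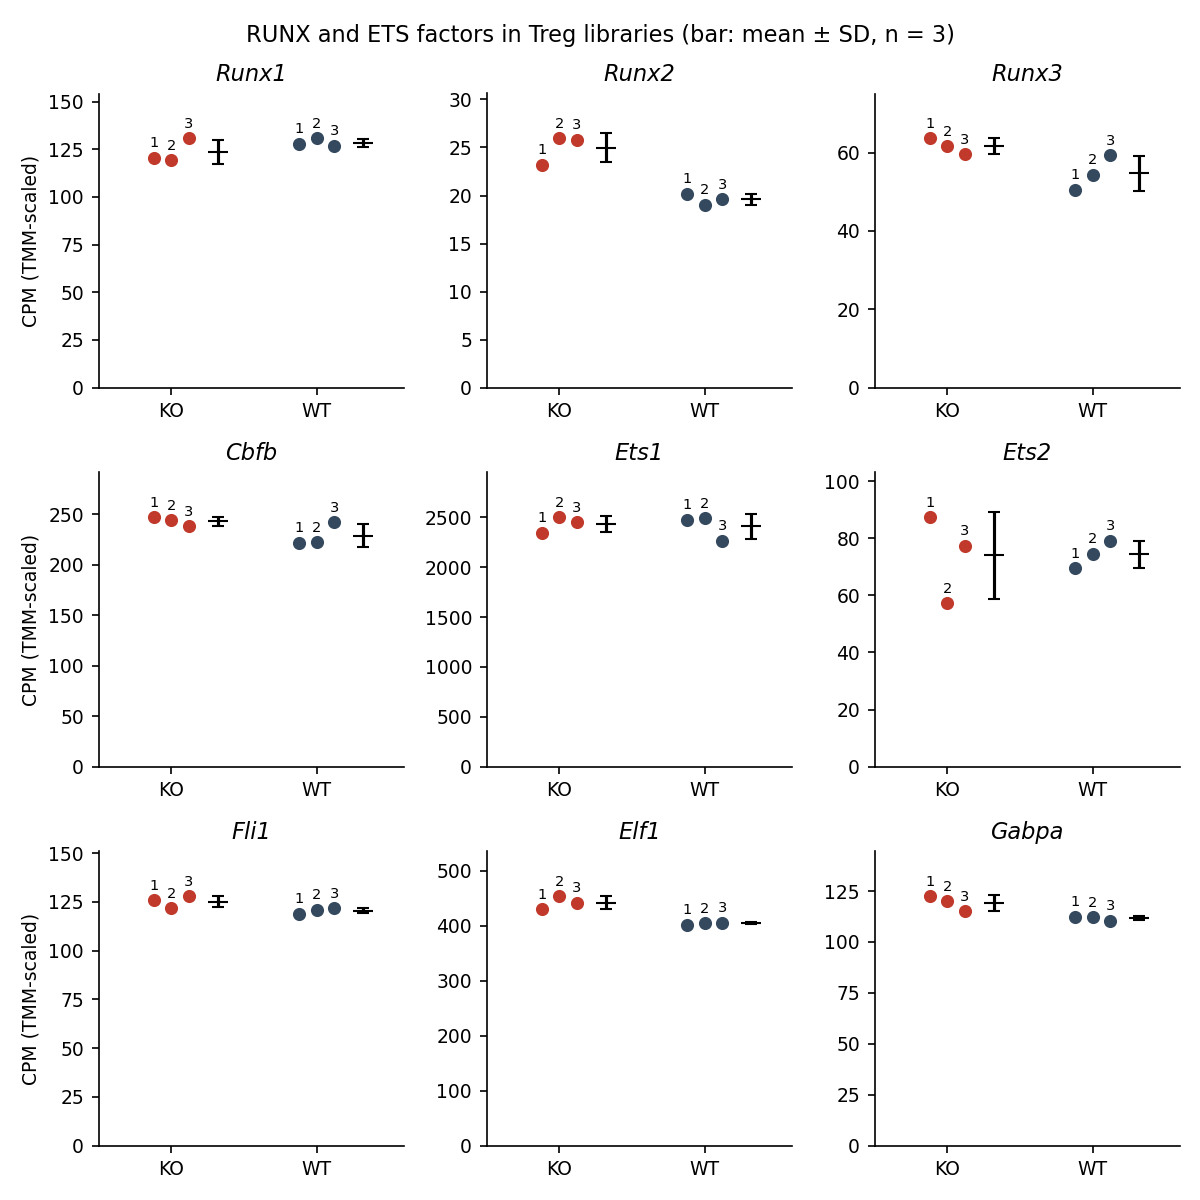
TMM-scaled CPM (vertical axis, from 0) of each of the 9 genes in 3 KO and 3 WT libraries, with replicate numbers above the points and mean ± SD to their right. Runx2 lies between 23.2 and 25.9 CPM in KO and between 19.1 and 20.2 CPM in WT, while Ets2 spreads from 57.3 to 87.3 CPM within KO.

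Runx2 (ENSMUSG00000039153) is the master regulator of bone formation and is also made by T cells. The gene spans bases 44495987 to 44814797 of chromosome 17 on the minus strand (coordinates here and below as deposited, mm10). It had 462, 510 and 584 reads in KO 1, 2 and 3, against 368, 399 and 389 reads in WT 1, 2 and 3. Scaled by TMM these were 23.2, 25.9 and 25.8 CPM in KO and 20.2, 19.1 and 19.6 CPM in WT. Every KO library was above every WT library, and the KO values differed little between KO 2 and KO 3. The means were 25.0 ± 1.54 CPM in KO and 19.6 ± 0.556 CPM in WT, and Runx2 was 1.28-fold higher in KO (log2 fold change 0.35, SE 0.08, 95% interval 0.18 to 0.52, edgeR adjusted p = 0.0229).

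The call of Runx2 was lost in 5 of the 6 fits with 1 library left out. Its log2 fold change stayed between 0.32 and 0.40 when 1 library was left out, and the call was kept without KO replicate 1 (edgeR adjusted p = 0.0261). The adjusted p was 0.0658 without KO replicate 2, 0.0676 without KO replicate 3, 0.0787 without WT replicate 1, 0.110 without WT replicate 2 and 0.0753 without WT replicate 3. KO 2, in which Runx2 was highest by a narrow margin, was also the library with the highest summed myeloid markers. Of 6 tested myeloid markers 0 passed (edgeR, DESeq2 and limma-voom), with 0 at an unadjusted p under 0.05, beside 20.4% of all genes. All 6 had a log2 fold change above 0, with a median of 0.66, beside 0.00 over all genes tested. Csf1r, for example, had 469, 1023 and 166 reads in KO and 261, 374 and 327 reads in WT. With such spread within KO the test could hardly call a rise, so the lack of calls decides nothing. The size of the Runx2 difference was 0.32 without KO 2. Summed dendritic cell markers ranged from 28.7 to 51.8 CPM in KO and from 62.0 to 108.3 CPM in WT, mostly from Ccr9, which T cells also express and which fell in KO (log2 fold change -1.44, edgeR adjusted p = 0.0114). The other tested marker of that list, Zbtb46, a factor of classical dendritic cells, had 3.17, 3.41 and 2.74 CPM in KO and 1.97, 1.58 and 1.92 CPM in WT. Every KO library was above every WT library, as for Runx2, though Zbtb46 did not pass (log2 fold change 0.77, edgeR adjusted p = 0.0601). Itgax, which encodes CD11c, had 15, 27 and 1 reads in KO and 4, 6 and 8 reads in WT. Siglech, a defining marker of plasmacytoid dendritic cells, in which Runx2 is abundant, had 0 or 1 reads in every library. The part of dendritic and myeloid cells in the Runx2 difference was not tested. The exons of Runx2 overlap those of the antisense gene Runx2os1, which had 2, 3 and 3 reads in KO and 0, 3 and 0 reads in WT. The gene Supt3 lies across Runx2 on the opposite strand without sharing exons and did not pass (log2 fold change -0.09, edgeR adjusted p = 0.715).

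Runx3 and Runx1 are the main RUNX genes of T cells. Runx3, which silences Cd4 in CD8 T cells and takes part in cytotoxic and helper programmes (ENSMUSG00000070691, chromosome 4, 135120652 to 135177990, plus strand), had 63.6, 61.6 and 59.6 CPM in KO 1, 2 and 3 and 50.5, 54.4 and 59.3 CPM in WT 1, 2 and 3. KO 3 and WT 3 nearly met. The log2 fold change of 0.17 (SE 0.07, 95% interval 0.02 to 0.32) had an unadjusted p of 0.0289 and did not pass (edgeR adjusted p = 0.184). Runx1, needed for blood stem cells and for CD4 T cell maturation (ENSMUSG00000022952, chromosome 16, 92601466 to 92826149, minus strand), had 120.6, 119.3 and 130.7 CPM in KO and 127.8, 130.7 and 126.8 CPM in WT. Its values overlapped between genotypes, with a log2 fold change of -0.06 (95% interval -0.17 to 0.06, edgeR adjusted p = 0.600).

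Cbfb, the shared partner of the RUNX proteins (ENSMUSG00000031885, chromosome 8, 105170674 to 105217989, plus strand), had 246.8, 243.8 and 238.0 CPM in KO and 221.8, 222.5 and 241.9 CPM in WT. WT 3 lay within the KO range and the other WT libraries below it. For Cbfb the log2 fold change was 0.09 (95% interval -0.03 to 0.20, edgeR adjusted p = 0.382).

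The make-up of the RUNX transcripts was described within each library. Runx1 supplied 39.5, 39.4 and 42.3% of the summed RPKM of the 3 RUNX genes in KO 1, 2 and 3, against 46.2, 45.5 and 42.8% in WT 1, 2 and 3. Runx2 supplied 10.3, 11.7 and 11.4% in KO and 9.93, 9.03 and 9.01% in WT. Both shares did not overlap between genotypes, Runx1 being lower and Runx2 higher in KO. For Runx1 they nearly met, at 42.3% in KO 3 and 42.8% in WT 3. The shares are parts of a whole, so higher Runx2 or Runx3 lowers the share of Runx1, whose own level overlapped between genotypes. The Runx2 share restates its higher level and is not separate evidence. The share of Runx3, 48.5 ± 1.92% in KO and 45.8 ± 2.17% in WT, overlapped. With the longest transcript as length, Runx1 supplied 51.6 ± 1.66% in KO and 56.2 ± 1.76% in WT, again without overlap. The ratio of the summed RUNX level to Cbfb was 0.364 ± 0.0101 in KO and 0.363 ± 0.00987 in WT, so that RUNX transcripts per Cbfb transcript lay in the same range in both genotypes. These shares are descriptions without a test.

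**Figure D2:**
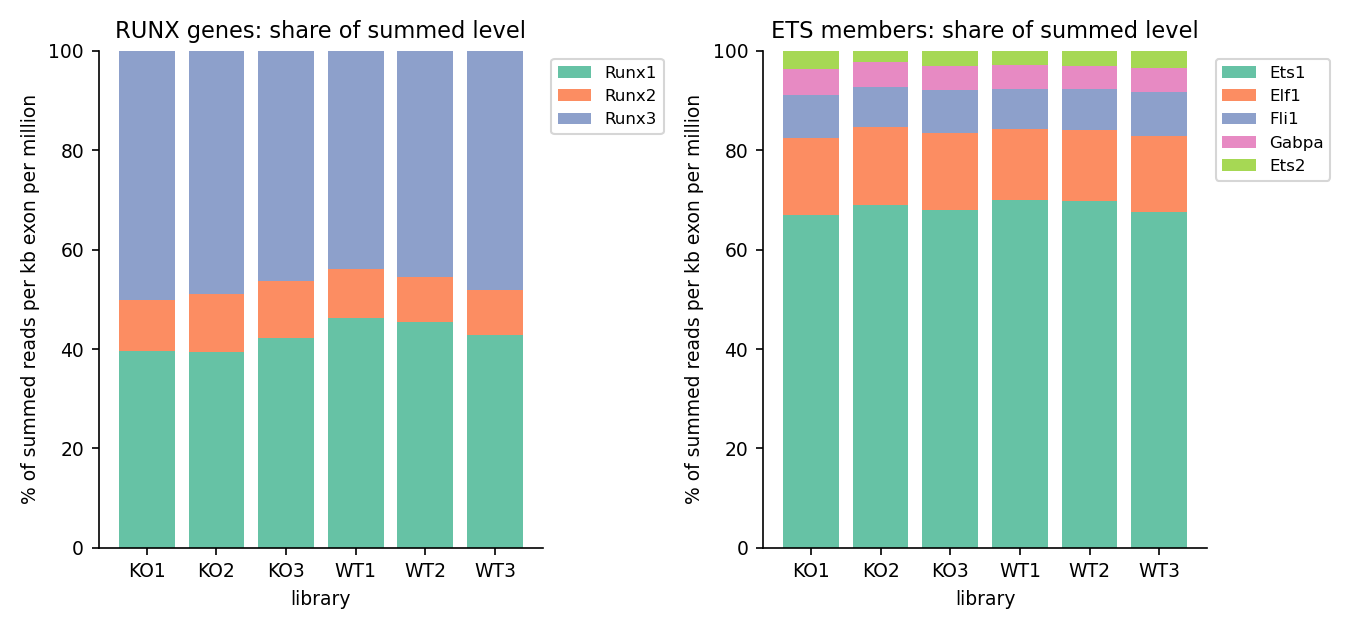
Share of each gene (vertical axis, percent of the summed RPKM) among the 3 RUNX genes (left) and the 5 ETS genes (right) in each library. The Runx1 share is 39.4 to 42.3% in KO and 42.8 to 46.2% in WT, and Ets1 makes up 67.0 to 69.9% of the ETS sum in all libraries.

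Of the ETS genes, Ets1 (ENSMUSG00000032035, chromosome 9, 32636221 to 32757820, plus strand) had 2346, 2500 and 2454 CPM in KO and 2477, 2489 and 2264 CPM in WT. The 2 genotypes overlapped almost fully. Its log2 fold change was 0.01 (95% interval -0.11 to 0.14, edgeR adjusted p = 0.922), and it turned to -0.01 without KO replicate 2 and to -0.03 without WT replicate 3. With 46693 to 55490 reads in KO libraries and 44905 to 52105 in WT libraries, counting error was small beside the spread between libraries. Ets1 took 0.244% of all reads in KO and 0.240% in WT.

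Fli1, a regulator of blood and megakaryocyte development, lies 93359 bases from Ets1 on the opposite strand (ENSMUSG00000016087, chromosome 9, 32422204 to 32542861, minus strand). It had 125.9, 121.8 and 127.8 CPM in KO and 118.9, 120.9 and 121.8 CPM in WT, with the lowest KO and the highest WT library at the same level. Its log2 fold change was 0.05 (95% interval -0.04 to 0.15, edgeR adjusted p = 0.549). On the other side of Ets1 the nearest tested protein-coding gene, the sialyltransferase gene St3gal4, fell to 28.7 ± 1.24 CPM in KO, against 38.2 ± 1.08 CPM in WT (log2 fold change -0.42, edgeR adjusted p = 0.00567), but it lies 2288755 bases away.

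Elf1, an ETS factor that binds regulatory DNA of Il2ra and other lymphocyte genes (ENSMUSG00000036461, chromosome 14, 79481194 to 79582494, plus strand), had 430.1, 453.8 and 442.5 CPM in KO and 402.4, 405.1 and 406.2 CPM in WT. The 3 WT libraries differed by less than 4 CPM and every KO library was above them. The log2 fold change of 0.13 (SE 0.04, 95% interval 0.03 to 0.23) had an unadjusted p of 0.0165 and did not pass (edgeR adjusted p = 0.134). Exons of Elf1 overlap those of Wbp4 on the opposite strand over 327 bases, and Wbp4 did not pass (log2 fold change 0.06, edgeR adjusted p = 0.729). Elf1 made up 15.5 ± 0.165% of the summed RPKM of the 5 ETS genes in KO and 14.6 ± 0.554% in WT, with no overlap.

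Gabpa encodes the DNA-binding subunit of GABP, which pairs with a beta subunit and drives many nuclear genes of mitochondria (ENSMUSG00000008976, chromosome 16, 84834925 to 84863779, plus strand). It had 122.4, 120.0 and 115.1 CPM in KO and 112.4, 112.1 and 110.5 CPM in WT. All KO libraries were above all WT libraries, by a margin smaller than the KO range, and the log2 fold change of 0.09 did not pass (95% interval -0.01 to 0.19, edgeR adjusted p = 0.279). Its exons overlap those of the ATP synthase gene Atp5j on the opposite strand over 397 bases, and Atp5j did not pass (log2 fold change 0.05, edgeR adjusted p = 0.775).

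Ets2, which responds to RAS and MAP kinase signals, was the most variable of the 9 genes within KO (ENSMUSG00000022895, chromosome 16, 95702407 to 95721045, plus strand). It had 87.3, 57.3 and 77.4 CPM in KO and 69.6, 74.6 and 79.1 CPM in WT. KO 1 was the highest and KO 2 the lowest of all 6 libraries, and the SD was 20.6% of the mean in KO and 6.39% in WT, where Runx3 varied more (8.12%). Ets2 had a log2 fold change of -0.01 with a 95% interval from -0.29 to 0.27 (edgeR adjusted p = 0.982), the widest interval of the 9 genes. Without KO replicate 2 it was 0.14 (edgeR adjusted p = 0.318). Within each genotype Ets2 was lowest in the library without Y-linked transcripts, KO 2 and WT 1. With the level of Y-linked reads as a covariate the log2 fold change was -0.15 (edgeR adjusted p = 0.412).

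**Figure D3:**
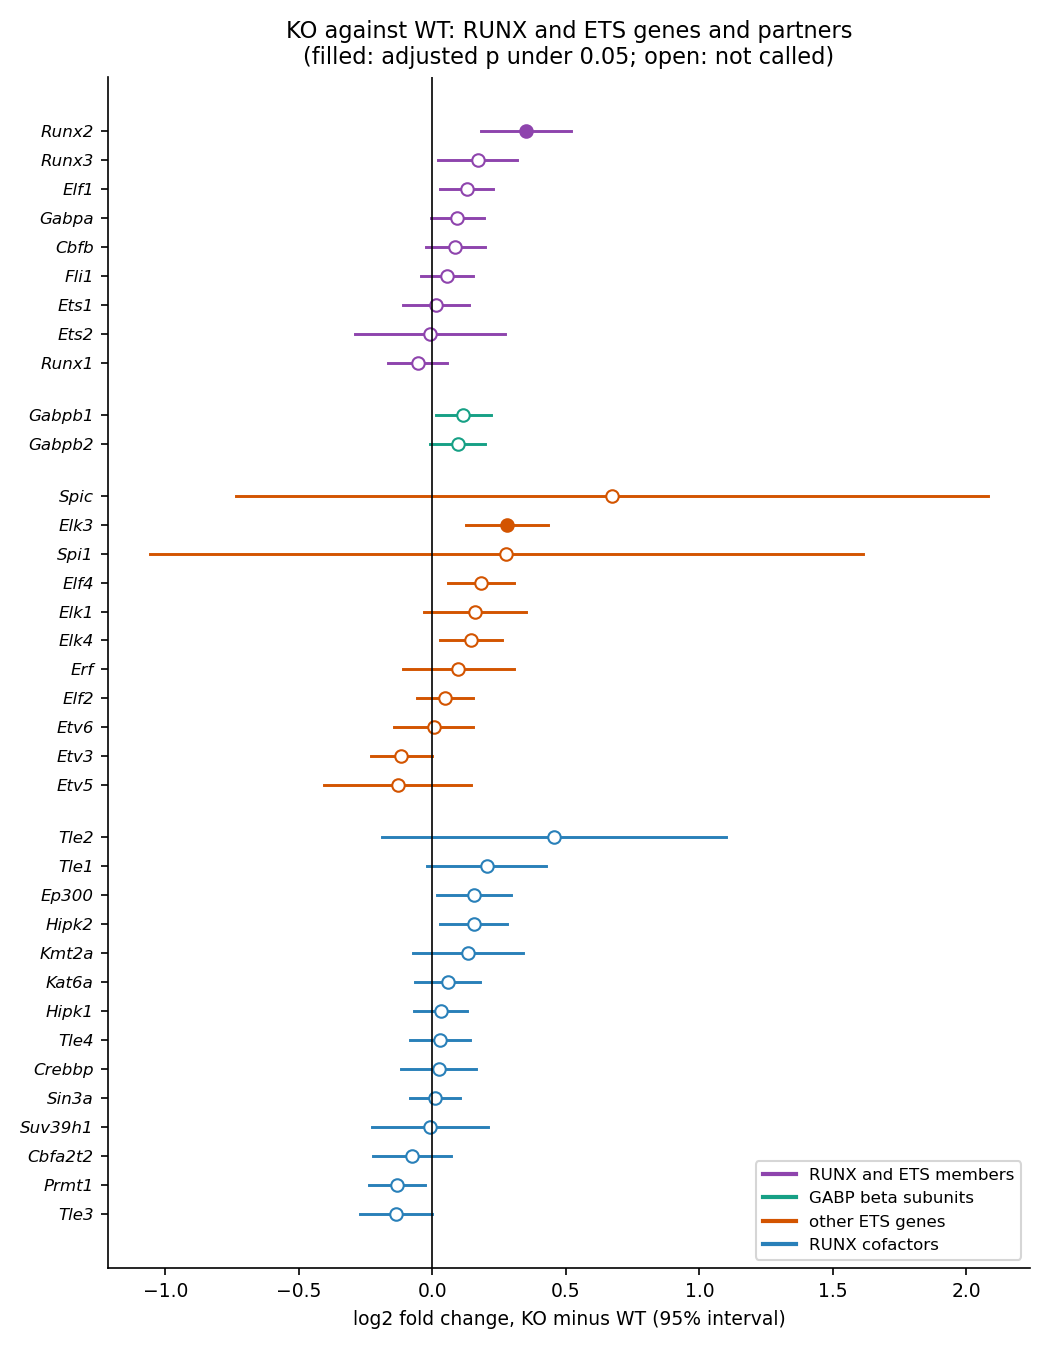
Log2 fold change, KO minus WT (horizontal axis), with its 95% interval for the 9 genes, the GABP beta subunits, other ETS genes and RUNX cofactors that were tested. Colours mark the 4 groups. Filled points passed an adjusted p under 0.05, which holds for Runx2 (0.35) and Elk3 (0.28) only. Wide intervals belong to genes with few reads, such as Spic and Spi1.

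The rest of the ETS family was then read against the 5 ETS genes above. Of 21 other ETS genes 11 had enough reads to be tested. By edgeR 1 rose, 0 fell, and 10 did not pass, beside 3.25% of all genes called as higher and 3.2% as lower. An unadjusted p under 0.05 was found for 4 of the 11, beside 20.4% of all genes. DESeq2 called 2 as higher, Elk3 and Elf4, and limma-voom 1, Elk3, and neither called any as lower. The median log2 fold change was 0.15 over the 11 genes and 0.00 over all genes tested. The gene that rose was Elk3, a ternary complex factor that acts with SRF and can repress, at 87.0, 96.7 and 79.6 CPM in KO and 74.0, 71.2 and 71.6 CPM in WT. All KO libraries were above all WT libraries (log2 fold change 0.28, SE 0.07, edgeR adjusted p = 0.0399).

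KO 2 was again the highest library for Elk3. Without KO replicate 2 the log2 fold change was 0.20 (edgeR adjusted p = 0.0849), and the call was also lost without KO replicate 1 (adjusted p = 0.0803) and without WT replicate 1, 2 or 3 (adjusted p = 0.121, 0.153 and 0.125). Exons of Elk3 overlap those of Cdk17 on the opposite strand over 316 bases, and Cdk17, at 232.1 ± 7.09 CPM in KO and 216.3 ± 5.64 CPM in WT, did not pass (log2 fold change 0.10, edgeR adjusted p = 0.258). Elf4, a relative of Elf1 that restrains T cell proliferation, had 352.8 ± 22.7 CPM in KO and 310.8 ± 6.02 CPM in WT (log2 fold change 0.18, edgeR adjusted p = 0.0850). Elk4, another ternary complex factor, had 193.7 ± 11.2 CPM in KO and 175.0 ± 1.89 CPM in WT (log2 fold change 0.15, edgeR adjusted p = 0.144). Etv3, a repressor, had 156.6, 144.7 and 157.6 CPM in KO and 161.2, 165.2 and 171.1 CPM in WT (log2 fold change -0.12, edgeR adjusted p = 0.235). Elf4, Elk4 and Etv3 are named here after their values were seen.

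ETS genes of other lineages had few reads or none. Fev and Etv2 had 0 reads in every library, which allows up to 0.155 CPM in a KO library and up to 0.165 CPM in a WT library. Spi1, the myeloid and B cell factor PU.1, had 13, 17 and 3 reads in KO and 12, 6 and 8 reads in WT. Spic, a factor of red pulp macrophages, had 75, 150 and 17 reads in KO and 21, 62 and 67 reads in WT, the highest in KO 2, where the macrophage markers Csf1r and Adgre1 were highest too, with 1023 and 311 reads. Spic did not pass (log2 fold change 0.67, SE 0.63, edgeR adjusted p = 0.616).

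Partners of the RUNX and GABP proteins gave no call. Of 17 RUNX cofactors 16 were matched by symbol, Tle5 being the exception, and 14 were tested. By edgeR's adjusted p 0 rose and 0 fell, beside 6.45% of all genes called in either direction (median log2 fold change 0.03). An unadjusted p under 0.05 was found for 4 of the 14, beside 20.4% of all genes. DESeq2 and limma-voom also called 0. The smallest p was that of Prmt1, an arginine methyltransferase that modifies RUNX1, with 91.8, 90.4 and 92.2 CPM in KO and 98.3, 98.0 and 104.6 CPM in WT (log2 fold change -0.13, edgeR adjusted p = 0.139). Runx1t1, a corepressor known from a leukaemia fusion with RUNX1 in humans, had 0 reads in every library. Both GABP beta subunits were tested and 0 passed by edgeR, DESeq2 or limma-voom, with 1 at an unadjusted p under 0.05, beside 20.4% of all genes. Gabpb1 had 78.5, 76.5 and 76.3 CPM in KO and 70.2, 71.7 and 71.5 CPM in WT (log2 fold change 0.12, edgeR adjusted p = 0.188). Gabpb2, named after its values were seen, had 272.8 ± 5.23 CPM in KO and 255.5 ± 8.19 CPM in WT (log2 fold change 0.09, edgeR adjusted p = 0.288). As for Gabpa, every KO library was above every WT library in both, which also holds for 12.6% of all genes. For Gabpb2 the gap was narrow, with 267.5 CPM in KO 2 and 264.2 CPM in WT 3.

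Genes that RUNX proteins are described to regulate in T cells moved in both directions. Of 26 such genes 21 were tested, 2 rose and 2 fell by edgeR, beside 3.25% and 3.2% of all genes, and the median log2 fold change was 0.05. For 7 of the 21 the unadjusted edgeR p was under 0.05, beside 20.4% of all genes. The genes that rose were Gzmb, the protease granzyme B, at 92.2 ± 13.6 CPM in KO and 23.8 ± 1.69 CPM in WT (log2 fold change 1.95, edgeR adjusted p = 3.24e-05), and Itgae, the integrin chain CD103, at 483.9 ± 5.60 CPM in KO and 391.6 ± 26.0 CPM in WT (log2 fold change 0.31, edgeR adjusted p = 0.0109). Both are known to be activated through Runx3 in CD8 T cells. Prf1, perforin, which is described as a Runx3 target in the same cells, fell instead, with 8.19, 8.55 and 5.84 CPM in KO and 11.2, 12.3 and 12.5 CPM in WT (log2 fold change -0.68, edgeR adjusted p = 0.0220). That call was lost without WT replicate 1, 2 or 3 (adjusted p = 0.0647, 0.0916 and 0.0800).

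The count of Foxp3, the defining factor of Treg cells, may share reads with the overlapping gene Flicr. After TMM scaling Foxp3 had 589.4, 603.2 and 595.0 CPM in KO and 559.4, 564.0 and 549.6 CPM in WT. Every KO library was above every WT library, as for 12.6% of all genes, but Foxp3 did not pass (log2 fold change 0.10, edgeR adjusted p = 0.253). Cd4, on which RUNX proteins act through a silencer, did not pass either (log2 fold change -0.01, edgeR adjusted p = 0.940).

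Genes described as ETS-regulated gave calls in 1 direction. Of 24 genes 22 were tested, 0 rose and 4 fell by edgeR, beside 3.2% of all genes called as lower. DESeq2 and limma-voom gave the same counts. An unadjusted p under 0.05 was found for 5 of the 22, beside 20.4% of all genes. The median log2 fold change of the 22 genes was -0.03, beside 0.00 over all genes tested. Egr1, an immediate early gene that ternary complex factors such as Elk3 bind, fell to 92.0, 88.5 and 90.8 CPM in KO, against 127.8, 114.4 and 111.5 CPM in WT (log2 fold change -0.38, SE 0.06, edgeR adjusted p = 0.00504). Zap70, the kinase at the T cell receptor, fell to 241.8, 231.4 and 236.4 CPM in KO, against 290.6, 280.6 and 264.1 CPM in WT (log2 fold change -0.24, edgeR adjusted p = 0.0219), a call lost without WT replicate 1 or 2 (adjusted p = 0.104 and 0.0956).

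Cd247, the zeta chain of the T cell receptor, had 262.5 ± 8.76 CPM in KO and 308.9 ± 5.25 CPM in WT (log2 fold change -0.23, edgeR adjusted p = 0.0157), and its call was lost without any 1 of the WT libraries (adjusted p = 0.0553, 0.0813 and 0.0556). Of its annotated exon length 56.4% overlaps exons of Pou2f1 on the opposite strand, so the count is uncertain. Itgb2, the beta chain of LFA-1, had 686.0 ± 21.8 CPM in KO and 783.2 ± 24.7 CPM in WT (log2 fold change -0.19, edgeR adjusted p = 0.0473), and its call was lost when any 1 library was left out (adjusted p from 0.0558 to 0.178), with upper-quartile scaling (0.0598), with total counts only (0.0518) and with the level of Y-linked reads as a covariate (0.0709). Of 11 mitochondrial genes described as GABP targets, 0 rose and 0 fell by edgeR, DESeq2 or limma-voom (median log2 fold change -0.04). Beside 20.4% of all genes, 1 of the 11 had an unadjusted p under 0.05. That was Cox7a2l, an assembly factor of respiratory supercomplexes, at 309.5 ± 3.32 CPM in KO and 343.6 ± 9.22 CPM in WT (log2 fold change -0.15, edgeR adjusted p = 0.0798).

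The profile of Runx2 over the 6 libraries was compared with those of 8308 other protein-coding genes of at least 10 CPM, by the root mean square difference of log2 CPM after centring each gene. The closest were Tlr1, a Toll-like receptor, at a difference of 0.0199, Cep19, a centrosomal protein, at 0.0248, and Galm, a sugar epimerase, at 0.0275. Tlr1 had 143.1, 163.7 and 162.6 CPM in KO and 127.4, 123.5 and 125.3 CPM in WT, with the lowest KO value in KO 1 and the lowest WT value in WT 2, as in Runx2. Tlr1 was picked for its likeness to Runx2, so the shared lowest libraries follow from that choice. Likeness over 6 libraries is a description only.

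**Figure D4:**
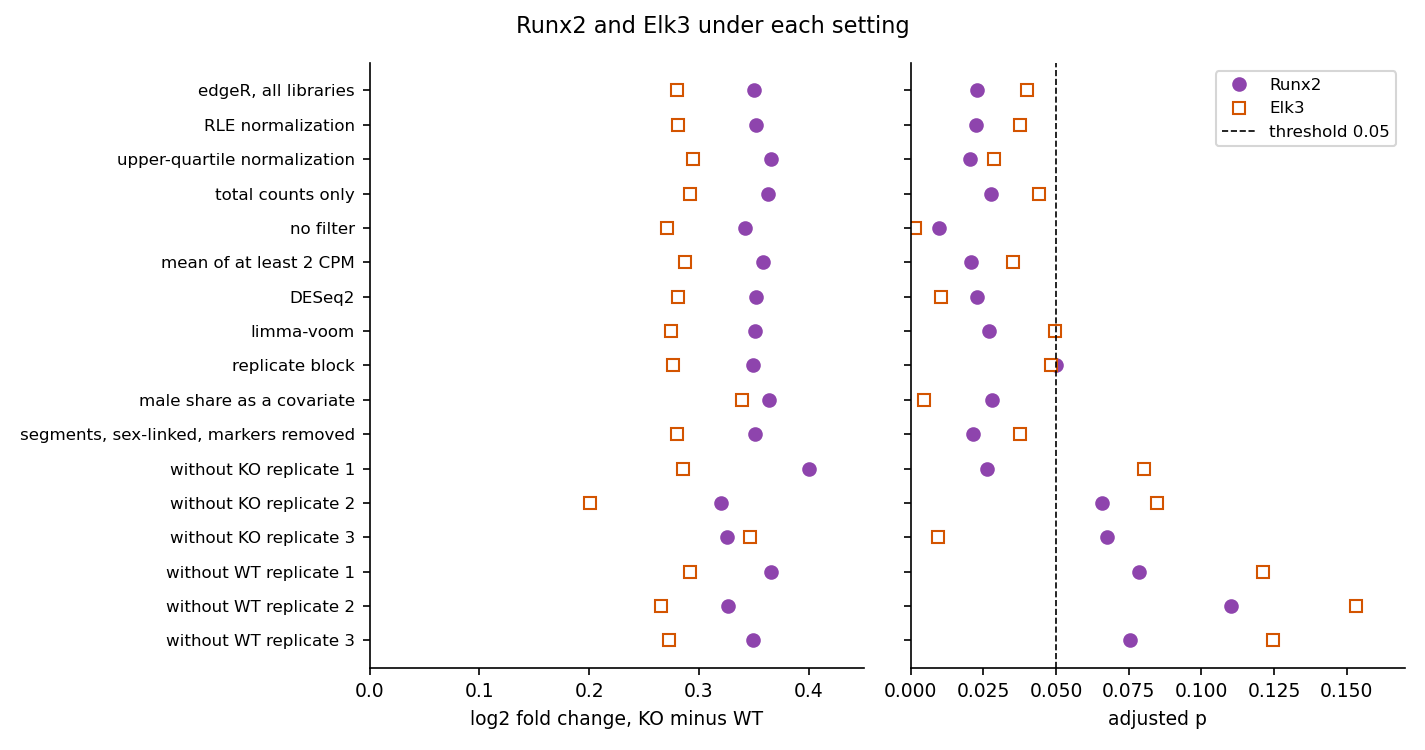
Log2 fold change, KO minus WT (left), and adjusted p (right) of Runx2 (circles) and Elk3 (squares) with all libraries and under each alternative, named on the vertical axis. The dashed line marks an adjusted p of 0.05, which Runx2 exceeds in 5 of 16 alternatives, all of them fits with 1 library left out, and which Elk3 exceeds in 5 as well.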

How the data were processed

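The authors deposited a table of raw counts with a column for each library, not normalized. The submitters' processing notes list HISAT2 2.1.0, fastp 0.23.2, DESeq2 1.34.0 and Picard, with mm10 as the build. The sources used here give neither their roles nor the counter, its strand setting or its annotation, so reads of genes that overlap on opposite strands may be shared. Totals of 18167053 to 22502804 reads make 3 counts, the limit that a count of 0 allows, 0.133 to 0.165 CPM. Such floors reflect counting error alone.

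The filter was filterByExpr (minimum count 10, minimum total 15), which left 13602 of 54232. They were scaled by TMM and tested for KO against WT without a block by edgeR's quasi-likelihood test (edgeR 4.0.16, R 4.3.3), adjusted by Benjamini-Hochberg. The steps were tested on simulated counts. No label ties a library to a mouse of its own, and p-values speak to the spread among the 6 libraries only. No pair of libraries agreed within sampling noise (chi-square per degree of freedom at least 5.03). Standard errors were obtained by dividing the absolute log2 fold change by the root of the F statistic. Date-like entries replaced 27 symbols, which were looked up again by identifier. Exon lengths and overlaps came from GENCODE M21 (the same build), promoters from RefSeq (GRCm38.p6).

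The 9 genes and all lists were chosen with earlier results of these data known. Named are the 9 genes, Smarcd2, up to 4 called genes per list or the smallest p, called or overlapping neighbours, and the 3 genes most like a called member. A gene that this rule names is not reported here.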

Additional observations from a re-analysis of the deposited data

How the results depend on the processing

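Log2 fold changes and calls of the 9 genes were recomputed under 16 alternatives: RLE, upper-quartile and total-count scaling, no filter, a mean of at least 2 CPM, DESeq2 1.42.0, limma-voom (limma 3.58.1), the replicate number as a block, the level of Y-linked reads as a covariate, the table without receptor segments and sex-linked or marker genes, and each library left out. Runx2 was called under all 10 alternatives that kept 6 libraries (adjusted p from 0.00962 to 0.0499). With 1 library left out its log2 fold change was 0.32 to 0.40 and the number of called members 0 to 1. Members other than Runx2 were not called under any of the 16. The log2 fold change of Ets1 lay between -0.03 and 0.04 (0.0394) with 1 library left out, and that of Ets2 between -0.14 and 0.14. Ets2 was 0.01 (0.0075) with upper-quartile scaling and 0.002 with total counts only, so the direction was not resolved for either gene. All genes called numbered 877, 1624 without a filter, and 344 to 848 with 1 library left out, 344 of them without WT replicate 1 or WT replicate 2. The cause was not tested.

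Same-numbered libraries did not deviate together (correlations of -0.17, -0.02 and 0.17), and those with different numbers ranged from -0.23 to 0.25. No pairing by number was seen, but 3 libraries per genotype cannot exclude a weak one. With the replicate block 738 genes were called, and Runx2 kept its call (log2 fold change 0.35, adjusted p = 0.0499). Among named genes outside the 9, the block ended the call of Itgb2 (adjusted p = 0.108). At 23.2 to 25.9 CPM in KO and 19.1 to 20.2 CPM in WT, depth limits Runx2 more than any other of the 9 genes.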
